A study of Mus musculus with 9 samples.

Results

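Cadherins are the calcium-dependent adhesion proteins that hold neighbouring cells together, and the Snail, Twist and Zeb transcription factors are best known as repressors of the E-cadherin gene. The cadherins Cdh1, Cdh2, Cdh6 and Cdh16 and the factors Snai1, Snai2, Twist1, Zeb1 and Zeb2 were followed here in mouse kidneys whose ureter had been obstructed and then released. The 9 genes were chosen by name, and every array probe whose RefSeq accession maps to one of their symbols was taken. That gave 11 probes: 3 for Zeb2 and 1 for each of the other genes. The array carried 32301 genes with a symbol or an accession, of which 17740 passed the filter on dim probes. Of the 9 genes, 7 passed it. Cdh2 and Twist1 did not.

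All 9 kidneys came from male ISAM mice aged 10 weeks, on a mixed strain background. ISAM mice lack the erythropoietin gene (Epo–/–) and carry the transgene 3.3K-Epo3'-Tg458, which supplies erythropoietin early in life, so that adults are anaemic. The control kidneys share this genotype. In the Clip arm (n = 3) a vascular clip had closed the left ureter for 2 days. In the ClipR-14 arm (n = 3) the same 2 days of obstruction were followed by 12 days without the clip. The control arm (n = 3) joined 2 sham-treated kidneys and 1 untreated kidney, and the labels give no collection day for it. RNA of the whole left kidney was hybridized, 1 sample to an array. The labels do not say whether each sample is 1 animal, so the p-values measure the spread between these samples.

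In an epithelial-mesenchymal transition, epithelial cells lose their junctions and take on features of migratory cells. Snail, Slug (the product of Snai2), Twist1, Zeb1 and Zeb2 bind E-box sequences and repress epithelial genes, above all Cdh1. Cdh1 encodes E-cadherin and Cdh16 encodes Ksp-cadherin, which is largely confined to the kidney tubule epithelium. Cdh6 encodes K-cadherin, known from the developing nephron, and Cdh2 encodes N-cadherin, the member that classically replaces E-cadherin in such a transition. In obstructed kidneys these genes are commonly read as signs of tubule injury and fibrosis.

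Levels are given as log2 of a probe's processed signal over the 75th percentile of its array, so that 0 marks that percentile and a difference of 1 is a doubling. The 75th percentile lay between 320 and 439 signal units, and 52.5% to 58.0% of spots were well above background, the scanner software's own detection call. The 9 arrays lay on 3 slides, each with 1 array of every arm. Slide 3, which holds the untreated kidney, carried a different scan date from slides 1 and 2. Array background was not equal: over the 14971 probes never well above background, the median level was -6.71 to -6.50 on Clip arrays, -6.46 to -5.85 on ClipR-14 arrays and -6.39 to -6.27 on control arrays. In whole-kidney RNA, fewer cells of a type and less RNA per cell cannot be told apart. Tubule markers fit the tissue label: the 11 proximal tubule markers averaged a log2 level of 5.29 to 5.62 on the control arrays.

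Snai1 had the largest change of the 7 genes tested, and its promoter carries the motif that its own protein is known to bind. The 250 bases before its start are shown for that reason, from the RefSeq table on build GRCm38.p6, chr2:167537945-167538194, + strand, with the E-box CACCTG in capitals.
Snai1: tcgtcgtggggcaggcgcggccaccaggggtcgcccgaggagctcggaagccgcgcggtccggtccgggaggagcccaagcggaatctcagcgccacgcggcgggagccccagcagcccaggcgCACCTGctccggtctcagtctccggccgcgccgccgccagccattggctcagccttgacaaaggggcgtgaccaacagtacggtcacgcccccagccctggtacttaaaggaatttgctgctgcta
The search covered CACCTG and its reverse complement CAGGTG. In the windows held for Cdh6, Twist1 and Zeb2 it found 0 matches. No window is reported here for the other members, Cdh1 among them. The single match in the Snai1 window lies at -126 to -121 from the start of transcription. Such a match was present in 5657 of 32851 promoter windows of this length (17.2%). It describes the letters in the window and is not evidence of binding.

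Obstruction for 2 days moved 6 of the 7 testable genes. Snai1, Snai2, Zeb1, Zeb2 and Cdh6 were higher and Cdh16 was lower in Clip than in control kidneys, while Cdh1 did not pass the test. Snai1 was 3.90-fold higher, and the other changes lay between 1.32-fold and 1.84-fold. The 1.84-fold is the fitted value of Cdh6, which was well above background in only 1 of 3 control kidneys. Change was widespread in this comparison: 48.9% of all genes tested passed an adjusted p of 0.05 in either direction, 21.4% as higher and 27.5% as lower. The arms did not overlap for Snai1, Snai2, Zeb1, Zeb2 and Cdh16, which was also the case for 58.6% of all genes (25.4% with Clip higher, 33.2% with Clip lower).

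**Figure D1:**
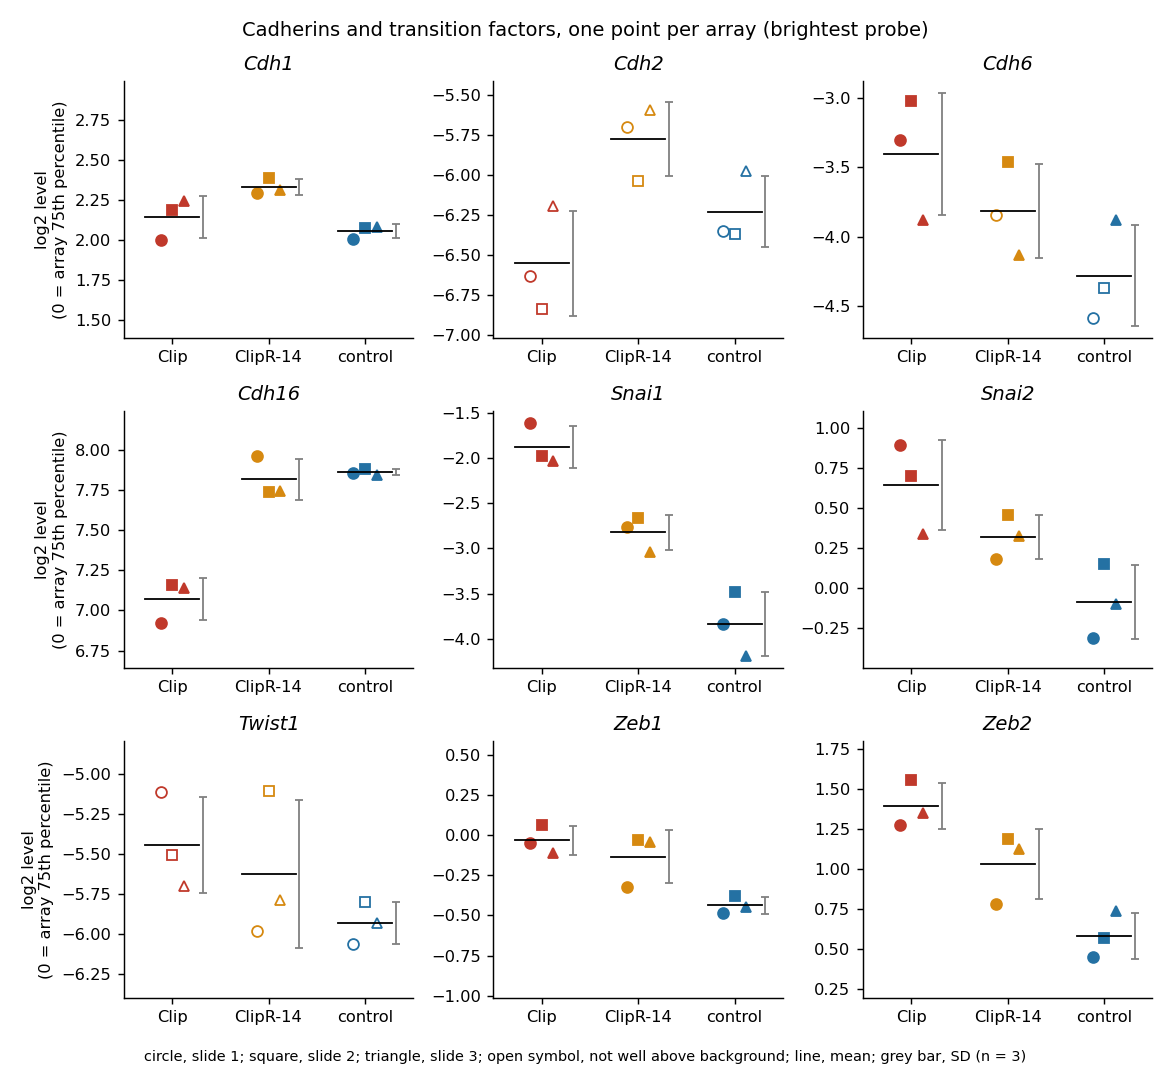
Log2 level (0 is the 75th percentile of the array) of the brightest probe of each gene, with 1 point per array in the Clip, ClipR-14 and control arms, the arm mean as a line and the SD as a grey bar (n = 3). Open symbols mark spots not well above background. Each panel has its own range on the vertical axis. Snai1 steps down between the arms, Cdh16 is low in Clip only, and Cdh2 and Twist1 show open symbols throughout.

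Snai1, which encodes Snail, had log2 levels of -1.61, -1.97 and -2.04 in Clip kidneys, -2.76, -2.66 and -3.04 in ClipR-14 kidneys, and -3.83 and -3.49 in sham and -4.19 in untreated kidneys. The 3 arms did not overlap, and every spot was well above background. Clip exceeded control by 1.96 ± 0.20 (log2 change ± SE, adjusted p = 8.67e-05). On the 3 slides taken singly the difference was between 1.51 and 2.23, and with slide as a block the adjusted p was 0.000168. Snai1 is a dim probe whose control levels are near the lowest detected on those arrays (-4.36 to -4.23), and under a different background correction (normexp) its change was 1.05 (adjusted p = 0.00331).

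Snai2 encodes Slug, the close relative of Snail. Its log2 levels were 0.89, 0.70 and 0.34 in Clip kidneys, 0.18, 0.45 and 0.33 in ClipR-14 kidneys, and -0.31 and 0.15 in sham and -0.10 in untreated kidneys. The lowest Clip kidney lay above the highest control kidney, the sham 2 sample, but within the ClipR-14 range. Snai2 rose by 0.73 ± 0.17 (1.66-fold, adjusted p = 0.00752) in Clip against control, and was higher on each of the 3 slides. The difference between the Snai1 and Snai2 probes within an array, a quantity that array scaling leaves alone, was -2.51 ± 0.15 in Clip kidneys and -3.75 ± 0.30 in control kidneys (SD, n = 3 each). Its change of 1.23 (0.46 with normexp) had an exact two-sided permutation p of 0.1, the smallest that 3 against 3 allows. This pair was chosen after its values were seen.

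Zeb1 and Zeb2 encode the zinc finger homeobox repressors of E-cadherin. Zeb1 had log2 levels of -0.05, 0.07 and -0.11 in Clip kidneys, -0.32, -0.03 and -0.04 in ClipR-14 kidneys, and -0.48 and -0.38 in sham and -0.45 in untreated kidneys. Control kidneys were the lowest 3 of the 9. The rise in Clip against control was 0.41 ± 0.11 (1.32-fold, adjusted p = 0.0127), between 0.34 and 0.44 on single slides. It did not pass with the normexp background correction, where it was 0.18 (adjusted p = 0.279).

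The brightest Zeb2 probe, A_52_P596008, read 1.28, 1.56 and 1.35 in Clip kidneys, 0.78, 1.19 and 1.13 in ClipR-14 kidneys, and 0.45 and 0.57 in sham and 0.74 in untreated kidneys (log2 levels). It rose by 0.81 ± 0.14 (1.75-fold, adjusted p = 0.00157) in Clip against control. The probe A_51_P121206 read -0.84, -0.57 and -0.48 in Clip kidneys, -0.91, -0.73 and -0.64 in ClipR-14 kidneys, and -1.49 and -1.85 in sham and -1.60 in untreated kidneys. With every probe tested as its own feature, its rise was 1.01 ± 0.14 (adjusted p = 0.000452). Both probes put all Clip kidneys above all control kidneys. They place the ClipR-14 kidneys differently, close to Clip on A_51_P121206 and between the other arms on A_52_P596008. The third probe, A_52_P526372, was not well above background on any array.

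**Figure D2:**
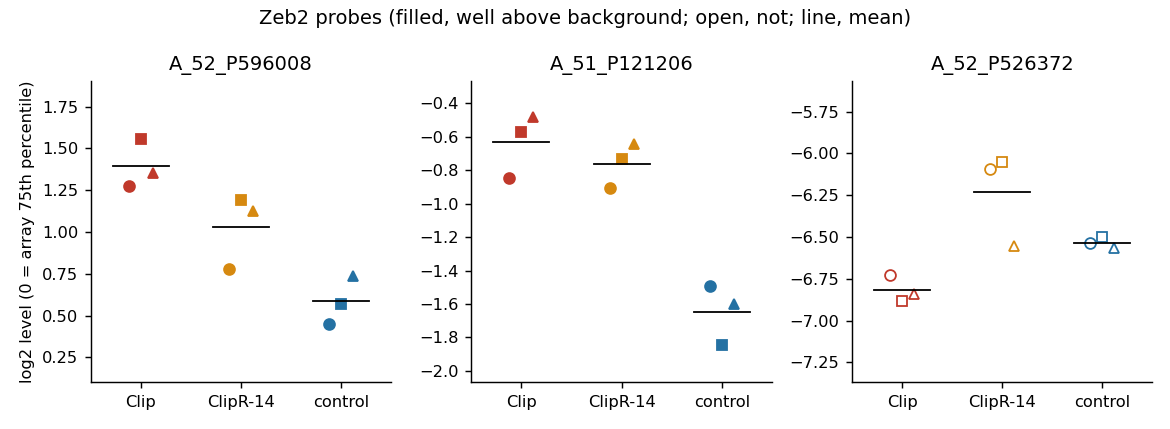
Log2 level of the 3 Zeb2 probes, with 1 point per array in the Clip, ClipR-14 and control arms and the arm mean as a line. Filled symbols are well above background. On the middle probe the ClipR-14 mean of -0.76 lies near the Clip mean of -0.63 and away from the control mean of -1.65. The right probe was not detected.

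Twist1, a basic helix-loop-helix factor, was not well above background on any of the 9 arrays. Its measured log2 values ran between -5.70 and -5.11 in Clip kidneys, between -5.98 and -5.11 in ClipR-14 kidneys and between -6.06 and -5.80 in control kidneys. No difference is drawn from values below detection. Its close relative Twist2, singled out after its values were seen, was well above background in all 3 Clip kidneys and in 0 of 3 ClipR-14 and 0 of 3 control kidneys. Having passed the filter through the Clip arm alone, it is described without a test result of its own. It is still counted among the other regulators of the transition given below.

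E-cadherin mRNA differed little between the arms. Cdh1 is printed 10 times on the array, and the SD over its spots within an array was 0.0715 to 0.174, with 6 of 90 spots set aside as outliers. Its log2 levels were 2.00 to 2.25 in Clip kidneys, 2.29 to 2.39 in ClipR-14 kidneys and 2.01 to 2.08 in control kidneys. Clip and control overlapped. The change was 0.09 ± 0.09 with a 95% interval of -0.12 to 0.30 (adjusted p = 0.459), and its sign turned with the normexp background correction (-0.058). With leaving out single arrays and the other alternatives the change ran from -0.058 to 0.25.

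Cdh16, by contrast, had log2 levels of 6.92, 7.16 and 7.14 in Clip kidneys, 7.96, 7.74 and 7.75 in ClipR-14 kidneys, and 7.86 and 7.88 in sham and 7.84 in untreated kidneys. All 3 Clip kidneys lay below the other 6. Cdh16 fell by 0.79 on the log2 scale (SE 0.10, 1.73-fold lower, adjusted p = 0.000341) in Clip against control, and each slide showed the fall, from -0.94 to -0.70. No Cdh16 spot was saturated. Within an array, Cdh16 minus Cdh1 was 4.93 ± 0.04 in Clip kidneys and 5.81 ± 0.05 in control kidneys (SD, n = 3 each), a change of -0.88 (exact two-sided permutation p = 0.1, the smallest possible). This pair too was chosen after its values were seen.

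Cdh6 lay near the limit of detection. Its log2 levels were -3.31, -3.02 and -3.88 in Clip kidneys, all well above background. They were -3.85, -3.47 and -4.14 in ClipR-14 kidneys, where 2 of 3 were well above background. Sham kidneys read -4.59 and -4.37, below detection, and the untreated kidney -3.88, the only detected control. Clip kidney 3 therefore did not exceed the untreated kidney on the same slide, where the difference was -0.00, against 1.28 and 1.35 on the other slides. The fitted rise was 0.88 ± 0.27 (1.84-fold, adjusted p = 0.0273). The call was lost without sham 1 (0.72, adjusted p = 0.0862), sham 2 (0.83, 0.0736), Clip 1 (0.83, 0.0779) or Clip 2 (0.69, 0.0964), with the normexp background correction (0.66, 0.121) and with no filter on dim probes (0.88, 0.0552).

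Cdh2 was not well above background on any of the 9 arrays. Its measured log2 values were -6.84 to -6.19 in Clip kidneys, -6.03 to -5.59 in ClipR-14 kidneys and -6.37 to -5.97 in control kidneys. Their arm means follow the order of the probes never detected, highest in ClipR-14 and lowest in Clip. Within the arms they do not: each arm's highest Cdh2 value was on slide 3, whose array had that arm's lowest background median. The balance of N-cadherin against E-cadherin within an array had been planned as a comparison. It is not given, because Cdh2 was never detected.

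After 12 days of release, 1 of the 7 testable genes still differed from control. Snai1 was higher than in control kidneys, and Cdh16 did not pass the test. Few genes differed in this comparison: 1.83% of all genes tested passed the threshold, 1.46% as higher and 0.372% as lower. The ClipR-14 and control arms nonetheless did not overlap for Cdh1, Snai1, Snai2, Zeb1 and Zeb2, with ClipR-14 higher in each, which was the case for 13.6% of all genes in that direction and for 27.2% in either.

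Snai1 exceeded control by 1.02 ± 0.20 (2.02-fold, adjusted p = 0.0479) in ClipR-14 kidneys, between 0.82 and 1.16 on single slides. The call stands close to the threshold. It held with slide as a block (adjusted p = 0.0331). It was lost on leaving out any 1 of the 9 arrays (adjusted p = 0.0603 to 0.164), with quantile normalization (0.91, adjusted p = 0.0668) and with normexp (0.32, adjusted p = 0.859). The ClipR-14 arm also had the highest mean background level, -6.08 against -6.32 in control. Array ClipR-14 3, at -6.46, lay below every control array, however. On slide 3, which holds that array, the Snai1 difference was 1.16. The part of background in the Snai1 difference was not tested.

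The other factors in ClipR-14 kidneys had positive log2 changes that did not pass the test: 0.41 ± 0.17 for Snai2 (adjusted p = 0.217), 0.30 ± 0.11 for Zeb1 (0.156) and 0.45 ± 0.14 for Zeb2 on its brightest probe (0.126). The Zeb2 probe A_51_P121206, tested as its own feature, was higher by 0.89 ± 0.14 (adjusted p = 0.0331). Zeb2 passed when its detected probes were averaged (0.67, adjusted p = 0.0421) and, on the brightest probe, with slide as a block (adjusted p = 0.04995). Whether Zeb2 passed after release differed between its probes.

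Among the cadherins, Cdh16 differed from control by -0.04 ± 0.10 in ClipR-14 kidneys (95% interval -0.28 to 0.19, adjusted p = 0.83). Cdh1 had a log2 change of 0.27 ± 0.09 (adjusted p = 0.146), and all 3 ClipR-14 kidneys lay above all control kidneys. Cdh6 had a change of 0.47 ± 0.27 (adjusted p = 0.358), with overlapping arms.

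Released kidneys were also set directly against obstructed ones. In ClipR-14 against Clip kidneys, Cdh16 was 1.67-fold higher (0.74 ± 0.10, adjusted p = 0.000659) and Snai1 was 1.93-fold lower (-0.95 ± 0.20, adjusted p = 0.00554). These were 2 of 7 genes tested, where 41% of all genes passed (23.6% as higher, 17.4% as lower). The ClipR-14 and Clip arms did not overlap for Cdh1 and Cdh16, higher in ClipR-14, nor for Snai1 and Zeb2, lower in ClipR-14, against 54.8% of all genes (31.4% higher, 23.3% lower). On its brightest probe Zeb2 had a change of -0.36 ± 0.14 (adjusted p = 0.0694) and passed with slide as a block (adjusted p = 0.0213). The Zeb2 probe A_51_P121206, tested as its own feature, had a change of -0.13 ± 0.14 (adjusted p = 0.502), with overlapping arms. Cdh1 (0.19 ± 0.09, adjusted p = 0.143), Snai2 (-0.32 ± 0.17, 0.168), Cdh6 (-0.41 ± 0.27, 0.266) and Zeb1 (-0.10 ± 0.11, 0.478) did not pass. The 3 comparisons share arms, so their changes are not independent of each other.

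**Figure D3:**
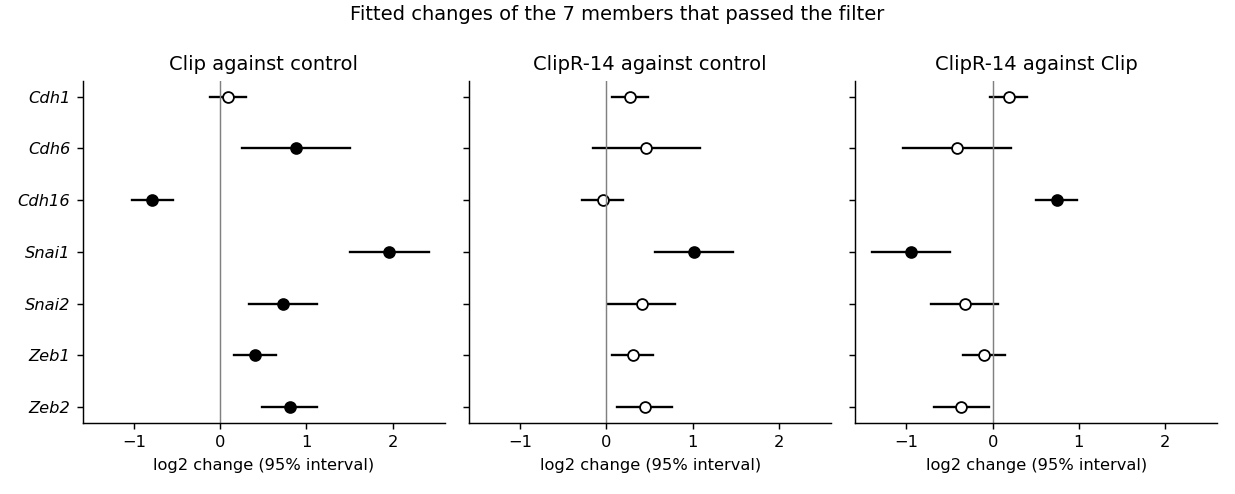
Fitted log2 change of the 7 genes that passed the filter, with its 95% interval, for Clip against control, ClipR-14 against control and ClipR-14 against Clip. Filled points passed an adjusted p of 0.05: 6 in the first comparison, 1 in the second and 2 in the third. Snai1 stands at 1.96, 1.02 and -0.95, and Cdh16 at -0.79, -0.04 and 0.74.

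Few of the other listed cadherins were detected in these kidneys. Of 18 further family members, 17 had a probe, 11 of those were never well above background and 5 could be tested. In Clip against control 2 rose, 1 fell and 2 did not pass, with a median log2 change of 0.46 against -0.09 over all genes. Of all genes tested, 21.4% rose and 27.5% fell. Cdh3, which encodes P-cadherin of basal and injured epithelia, was 4.05-fold higher (2.02 ± 0.13, adjusted p = 9.67e-06, and 1.12 on the log2 scale with normexp), and it was 1.6-fold higher in ClipR-14 against control (0.68, adjusted p = 0.0451). Cdh5, the cadherin of endothelial junctions, was 1.38-fold higher (adjusted p = 0.0217), a call that was lost with normexp (0.29, adjusted p = 0.152) and without sham 1, sham 2, Clip 1 or Clip 2 (adjusted p up to 0.0779). Cdh4, which encodes R-cadherin, was 3.07-fold lower (-1.62 ± 0.17, adjusted p = 0.000109), and this too was lost with normexp (-0.14, adjusted p = 0.721).

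Catenins tie cadherins to the actin cytoskeleton. The catenin genes paired with E-cadherin did not pass the test in Clip against control, with log2 changes of 0.04 for Ctnnb1 (adjusted p = 0.787), 0.01 for Ctnnd1 (0.948) and 0.24 for Ctnna1 (0.0738). Of 20 catenin and junction partner genes tested, 6 rose, 2 fell and 12 did not pass (median 0.34), where 21.4% of all genes rose and 27.5% fell. With slide as a block 10 rose and 3 fell, where 4459 of all 17740 genes rose and 5879 fell. The rises included Vcl, which encodes vinculin (2.05-fold), and the desmosomal plaque gene Dsp (1.88-fold). Pkp4, a plakophilin gene, was 1.88-fold lower. Ctnna2, the neuronal alpha-catenin gene, was not well above background in any Clip kidney and was at least 3.45-fold lower (adjusted p = 0.000212), but not with normexp (-0.10, adjusted p = 0.859). In ClipR-14 against control 0 of the 20 passed in limma. An unadjusted p under 0.05 was found for 3, and the share of all genes at that unadjusted threshold is not given. With slide as a block 1 of the 20 passed, as higher, where 751 of all 17740 genes passed as higher.

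Among 9 genes of cadherin cleavage and turnover, the 3 matrix metalloproteinases rose in Clip against control and the 6 others did not pass. Over all genes tested, 48.9% passed in that comparison, 21.4% as higher. Mmp7, which encodes matrilysin, able to cut the ectodomain of E-cadherin, was not well above background in any control kidney and was at least 19.6-fold higher in Clip. Mmp3 had a fitted log2 change of 4.36 and Mmp9 of 1.46, each with 1 of 3 control kidneys well above background. The mean Mmp3 level of -4.42 in control kidneys lay below the lowest detected level of those arrays, so no exact fold is given. Normexp gave smaller log2 changes: 2.41 for Mmp7, below the bound above, 2.27 for Mmp3 and 0.85 for Mmp9, all past the threshold. In ClipR-14 against control Mmp3 had a fitted log2 change of 1.87 (adjusted p = 0.0314). With quantile normalization 6 of the 9 passed in Clip against control, all as higher. Over the alternatives 5626 to 11046 of all genes passed in that comparison.

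Of 24 other regulators and cofactors of the transition, 11 rose, 4 fell and 9 did not pass in Clip against control (median 0.23), where 48.9% of all genes passed. The 24 include Twist2, which was detected in the Clip arm alone. With normexp 6 rose and 0 fell, where 2519 of all genes rose and 3107 fell. Sox9, a progenitor and injury factor of the tubule, was not well above background in any control kidney and was at least 27.3-fold higher, although normexp gave a log2 change of 2.68, which is below that bound. Sox4 was 4.37-fold higher in Clip (2.13, and 1.54 with normexp) and 1.91-fold higher in ClipR-14 against control (0.93, adjusted p = 0.0295). Prrx1, a mesenchymal homeobox factor, was 3.14-fold higher in Clip. The falls were small: -0.52 for Foxc2, -0.44 for Ctbp1, a corepressor of the Zeb proteins, and -0.44 for Btrc, a ubiquitin ligase subunit that targets Snail. Each of these 3 calls was lost with normexp, where Btrc turned to 0.13, Foxc2 had -0.34 (adjusted p = 0.147) and Ctbp1 had -0.54 (adjusted p = 0.0512), and those of Foxc2 and Btrc also without sham 2, Clip 1 or Clip 3.

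Of 16 genes tested that maintain the epithelial state, 5 rose, 3 fell and 8 did not pass in Clip against control (median 0.13), a share near the 48.9% of all genes. The epithelial factors Klf5 (2.71-fold) and Elf3 (2.54-fold) were higher. Elf5 was 1.67-fold higher, a call lost without sham 2, the untreated kidney, Clip 1, Clip 3 or any ClipR-14 array (adjusted p up to 0.125). Ovol1, known as a repressor of the mesenchymal programme, was 3.57-fold lower (-1.84, and -0.83 with normexp), the proximal tubule factor Hnf4a 1.89-fold lower and the epithelial splicing factor Esrp2 1.87-fold lower. In ClipR-14 against control Epcam, an epithelial adhesion gene, was 1.62-fold higher (0.69 ± 0.12, adjusted p = 0.0411).

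Mesenchymal products had the highest median change of these lists. In Clip against control 15 of 18 rose, 0 fell and 3 did not pass, with a median log2 change of 2.14. Over all genes tested, 21.4% rose in that comparison. Cd44, a hyaluronan receptor, was 15.4-fold higher (3.94, and 2.67 with normexp), and the fibrillar collagen genes Col3a1 and Col1a1 were 11.3-fold and 10.1-fold higher. In ClipR-14 against control 5 of 18 rose (median 0.56), where 1.46% of all genes rose, among them Col3a1 (2.54-fold, adjusted p = 0.043) and Tnc, which encodes tenascin C (2.58-fold, adjusted p = 0.0494). The count of 5 was 0 with normexp, with no filter and with the 2 arms alone. Leaving out sham 1, sham 2, ClipR-14 2 or ClipR-14 3 also gave 0. The count was 2 with quantile normalization or the replicate number as a block, and it ran from 1 to 6 without any other array. Against Clip, 16 of the 18 were lower in ClipR-14 (14 to 17 called over the alternatives), where 17.4% of all genes were lower. The calls named here for ClipR-14 against control (Cdh3, Mmp3, Sox4, Epcam, Col3a1 and Tnc) were each lost when the Clip arrays were left out of the fit or dim probes were not filtered, with the same fitted changes, and without sham 2, Clip 1, ClipR-14 2 or ClipR-14 3. They were also lost with normexp, where the log2 changes were 0.23 for Cdh3, 0.60 for Mmp3, 0.59 for Sox4, 0.52 for Epcam, 1.33 for Col3a1 and 0.53 for Tnc.

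**Figure D4:**
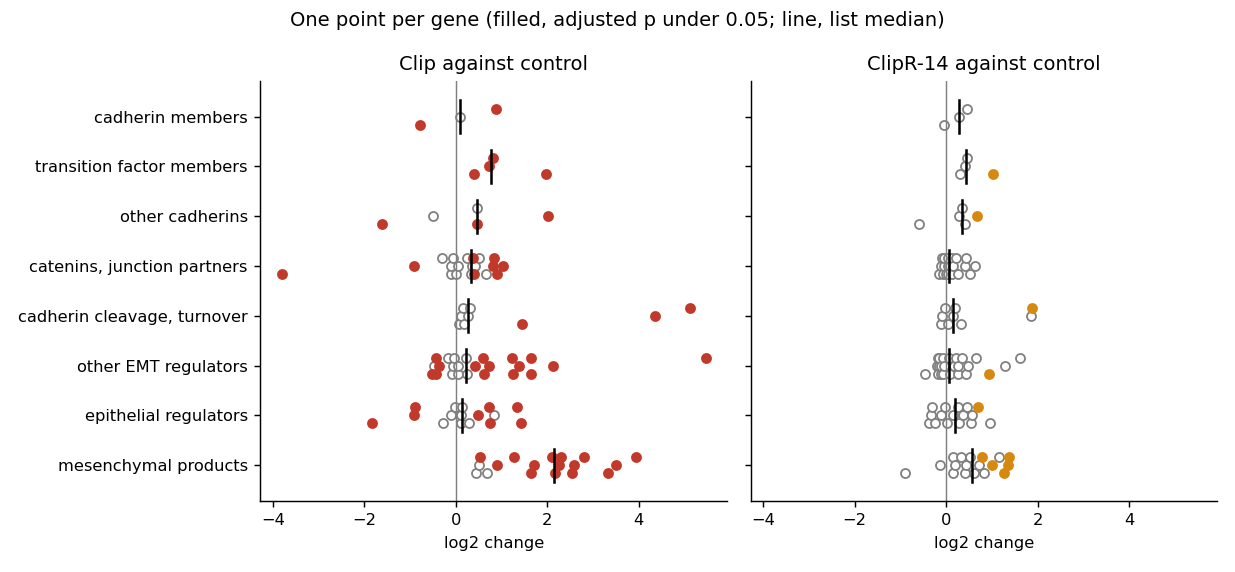
Log2 change of every gene tested, with 1 point per gene, in the cadherin and factor groups and the related lists, for Clip against control (left) and ClipR-14 against control (right). Filled points passed an adjusted p of 0.05 and black lines mark list medians. Mesenchymal products lie to the right in the left panel, with a median of 2.14, and nearer to 0 in the right panel, with a median of 0.56. The points of Mmp7, Sox9, Twist2 and Ctnna2 in the left panel are fitted values of genes undetected in 1 of the arms.

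Markers of other cell types moved with the same comparisons. Over all genes tested, 21.4% rose in Clip and 1.46% in ClipR-14 against control. The mean log2 level of 10 fibroblast markers was 0.17 to 0.37 in Clip, -0.13 to 0.17 in ClipR-14 and -1.01 to -0.50 in control kidneys, and 6 of the 10 rose in Clip and 2 in ClipR-14 against control. That of 10 macrophage markers was 0.03 to 0.31 in Clip, -1.40 to -1.17 in ClipR-14 and -2.31 to -2.08 in control kidneys, and 9 of the 10 rose in Clip and 3 in ClipR-14. Both ClipR-14 counts were 0 with normexp, no filter or the 2 arms alone and without sham 1, sham 2, ClipR-14 2 or ClipR-14 3. With slide as a block they were 3 for fibroblast and 5 for macrophage markers, where 751 of all genes rose. The fibroblast count was also 0 without Clip 1, Clip 2 or ClipR-14 1, where the macrophage count was 1 to 2. The median log2 change of the fibroblast markers against control was 0.86 in Clip and 0.86 in ClipR-14. Snai1, Snai2, Zeb1 and Zeb2 run in the same order of arm means as both lists. That order is not particular to them: Cdh6 and the urothelial, lymphocyte and cycling marker lists have it too. The part of fibroblast or macrophage content in the changes of the factors was not tested.

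The tubule markers moved with Cdh16. Over all genes tested, 27.5% fell in Clip against control. The mean level of 11 proximal tubule markers was 3.61 to 4.12 in Clip, 5.34 to 5.54 in ClipR-14 and 5.29 to 5.62 in control kidneys, and 10 of the 11 fell in Clip. For 7 thick limb and distal markers the mean was 1.27 to 1.43 in Clip, 4.88 to 4.94 in ClipR-14 and 4.71 to 4.92 in control kidneys, and all 7 fell. Of 8 collecting duct markers 6 fell, with means of 0.80 to 1.03 in Clip, 2.40 to 2.82 in ClipR-14 and 2.38 to 2.65 in control kidneys. The part of tubule cell content in the Cdh16 change was not tested. All markers of these 5 lists that had a probe were detected.

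**Figure D5:**
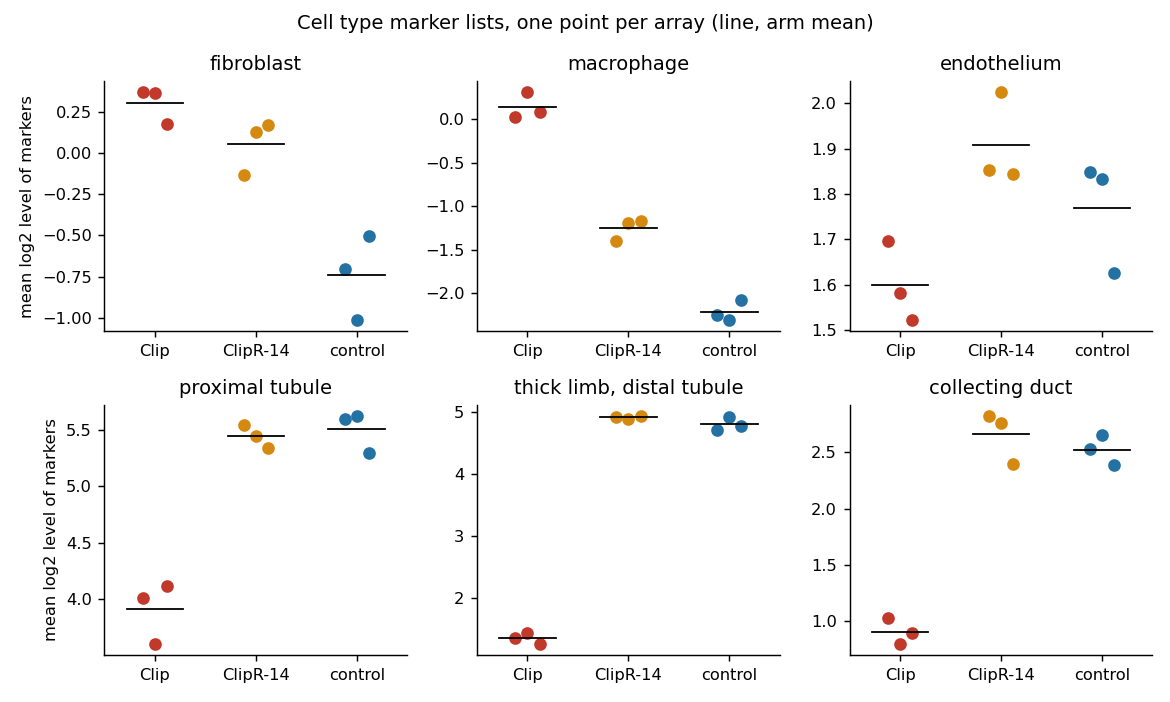
Mean log2 level of 6 lists of cell type markers, with 1 point per array in the Clip, ClipR-14 and control arms and the arm mean as a line. Fibroblast and macrophage lists are highest in Clip and lowest in control, the 3 tubule lists are lowest in Clip, and the endothelial list spans 1.52 to 2.02 over all arrays.

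The genes whose level followed each member most closely over the 9 arrays were found among 13016 genes with a symbol, by the root mean square difference of mean-centred log2 levels. For Snai1 these were Klhl31 (0.124), Asb2 and Zbed5, and for Snai2 Slc44a2 (0.113), Nsg1 and Clip2. Zeb1 was followed by Rap2a (0.0526), B130006D01Rik and Rttn, and Zeb2 by Ahnak (0.0836), Fmnl3 and Wipf1. Cdh1 lay closest to Magi3 (0.0493), Ddx17 and Prkar1a, Cdh16 to Arhgap5 (0.08), Morn1 and Gde1, and Cdh6 to Loxl3 (0.181), Ptprcap and Igsf9. None of the 7 genes tested was nearest to another of them by this measure. Cdh2 and Twist1 did not pass the filter and were not part of the search.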

How the data were processed

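Total RNA of 9 whole left kidneys (500 ng each) was labelled with Cy3 and hybridized to single-colour Agilent arrays, per the labels' protocols. For every spot the deposited files hold an intensity from the scanner, with background subtracted by Feature Extraction 10.7.3.1 (protocol GE1_107_Sep09, design 014868), per the file headers; no scaling between arrays had been applied. Other deposited columns hold flags and sample details. A deposited table of log2 values, whose centring is unknown (column medians -0.148 to 0.017), was not used: for 8080 of its 8142 filled rows matched to a probe, the median correlation with that probe was 0.0177.

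Intensities were divided by each array's 75th percentile, and log2 values were taken. Repeated spots were averaged without outlier flags and without the 1639 control spots of 45018. Symbols came from RefSeq accessions: 26690 of 41174 probes matched. A gene was tested on its brightest probe if well above background on at least 3 of 9 arrays (17740 genes). Models with 3 arms were fitted in limma 3.58.1 (R 4.3.3), with Benjamini-Hochberg adjustment over all genes and a threshold of 0.05. "At least" folds set the brighter arm's mean against the lowest detected level of the dimmer arm's arrays. The number of arrays limits the precision. The code was tested on simulated data.

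Alternatives were normexp on median signals (the planned mean signal column was not in these files; offset 50), quantile normalization, other filters and probe rules, slide and replicate blocks, the arrays of 2 arms alone and leaving out each array. Replicate numbers do not pair the samples by the labels. Correlations of deviations between same-numbered arrays of different arms were -0.209 to 0.269 (9 pairs), against 0.161 to 0.281 for arrays sharing a slide (9 pairs).

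The 9 genes, the lists and the tests were chosen with earlier results of these data known. Beyond the 9 genes, genes were named by rule: the 3 largest rises and falls past the threshold per list in Clip against control, the 2 largest changes in ClipR-14 against control and the 3 nearest profiles; 1 gene that the rule names is not reported here. The 3 E-cadherin catenins and Twist2 were added after their values were seen. The remaining marker lists had these calls in Clip against control: 2 of 7 endothelial markers fell, 2 of 5 lymphocyte and 2 of 6 urothelial markers rose, 3 of 5 podocyte markers fell and 5 of 6 cycling markers rose. Over all genes tested, 21.4% rose and 27.5% fell.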

Additional observations from a re-analysis of the deposited data

How the results depend on the processing

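Over the alternatives, 118 of 126 recomputed values of the 7 genes kept direction and side of the threshold in Clip against control, 108 of 126 in ClipR-14 against control and 124 of 126 in ClipR-14 against Clip. With normexp, Cdh1 in Clip against control turned to -0.058 and Btrc to 0.13, and the ClipR-14 against control change of Snai1 minus Snai2 turned to -0.059. With quantile normalization Cdh16 in ClipR-14 against control turned to 0.077. The background correction moved the median change of all genes in Clip against control to 0.10, against -0.09 in the main setting, and the cause was not tested.

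In ClipR-14 against control, 1 of the 7 genes passed in the main setting. Counts at an unadjusted p are given below without the share of all genes, so they cannot be set against it. By limma 0 passed with normexp, quantile normalization, no filter, every probe as a feature (brightest probes), the 2 arms alone or without any 1 array (0 to 0), where 2 to 5 had an unadjusted p under 0.05, and 2 passed with the mean of probes or slide as a block. All genes called there numbered 325 in the main setting, 1 with normexp, 117 with quantile normalization, 12 with no filter, 0 with the 2 arms alone, 1163 with slide as a block and 2 to 343 without 1 array. Leaving out sham 1 gave 58, sham 2 gave 16, Clip 1, 2 and 3 gave 73, 113 and 212, ClipR-14 1, 2 and 3 gave 174, 2 and 50, and leaving out the untreated kidney gave 343. In Clip against control 5626 genes were called with normexp, against 8676, and leaving out 1 array gave 7147 to 8605 genes and 5 to 6 of the 7. In ClipR-14 against Clip 4144 genes were called with normexp and 13597 with no filter, against 7270, and 5712 to 7652 without 1 array, with 2 to 2 of the 7. With no filter, probes at background, which differ between arms, enter the test.

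With the replicate number as a block, 203 genes and 0 of the 7 (6 at an unadjusted p under 0.05) were called in ClipR-14 against control, where Snai1 had 1.09 (adjusted p = 0.061). That block called 6 of the 7 in Clip against control and 2 in ClipR-14 against Clip. The labels do not say that a number marks a pair. Same-numbered arrays share a slide in 7 of 9 pairs, all but those of the untreated kidney, and these 7 correlated at 0.161 to 0.269. Cdh2 minus Cdh1 could not be recomputed because Cdh2 was never detected.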

Other observations

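Cell cycle markers, which are not part of the cadherin and factor lists, showed a sharp difference between the arms. Their mean log2 level was 0.25 to 0.37 in Clip, -2.45 to -2.38 in ClipR-14 and -2.75 to -2.44 in control kidneys. Of 6 such markers 5 rose in Clip against control, and 0 passed in ClipR-14 against control. Over all genes tested, 21.4% rose and 27.5% fell in Clip against control. Urothelial markers had means of -1.26 to -0.80 in Clip, -1.93 to -1.73 in ClipR-14 and -2.89 to -2.09 in control kidneys. Of 6 such markers 2 rose and 4 did not pass in Clip against control. Their median log2 change was 0.18, with a range of -0.31 to 6.06. Podocyte markers had means of -0.99 to -0.82 in Clip, -0.51 to -0.44 in ClipR-14 and -0.62 to -0.04 in control kidneys, and 3 of 5 fell in Clip against control.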
